A study of Mus musculus with 19 samples.

Results

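Zygotic genome activation is the switch by which the embryo begins to transcribe its own genes while the mRNAs stored in the egg are cleared, and in the mouse its main wave falls in the 2cell embryo. Factors that promote it are needed before or as it starts, so their own mRNAs may be stored by the oocyte, made anew by the embryo, or both. The genes of such factors followed here were chosen by name because each has been reported to promote genome activation in the mouse, and all 10 were found among the 25891 genes of the deposited table. They are the subunits of the CCAAT-binding trimer NF-Y (Nfya, Nfyb and Nfyc), the paired SAP domain chromatin proteins Dppa2 and Dppa4, the Hippo pathway coactivator Yap1 and its DNA-binding partner Tead4, the retinoic acid receptor gene Rarg, the negative elongation factor subunit gene Nelfa, and Trim24, a bromodomain coregulator of nuclear receptors. CPEB3, the protein removed in the study, belongs to the family of cytoplasmic polyadenylation element binding proteins, which act on stored mRNAs through their 3'UTRs.

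RNA-seq was made from MII oocytes, which are ovulated eggs arrested in the second meiotic metaphase, and from 2cell embryos of CPEB3+/- and CPEB3-/- females of the BL6 strain aged 6 to 10 weeks. All females received 5 IU PMSG and, 48 h later, 5 IU hCG. Those giving 2cell embryos were mated, and the embryos grew in M16 medium from the zygote and were taken 37 h after hCG. The knockout was conditional, with loxP sites cut by a Cre that the Zp3 promoter drives in growing oocytes, so the allele was lost in the germ cell of the mother. In the study such females were crossed to wild-type males, so that a paternal Cpeb3 allele remained in the embryo, though the cross behind the sequenced embryos is not described separately. There were 5 libraries of CPEB3+/- MII oocytes, 5 of CPEB3-/- MII oocytes, 5 of CPEB3+/- 2cell embryos and 4 of CPEB3-/- 2cell embryos, each from 5 cells per the methods, which give 4 samples a group. Nothing in the labels ties a library to 1 female, so p-values measure the spread between these libraries, which may be technical.

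The values are deposited FPKM, fragments per kilobase of gene and per unit of library depth. The kilobases are those of the whole gene, introns included. With that length 83.0% to 87.9% of low values in each library fell on whole fragments, within 0.05 of a fragment, where chance gives 10%. The size of 1 fragment was fitted with that length. At the same size the share with the exon length was 8.21% to 12.3%, and no size was fitted for that length. The step of 1 fragment put the depth at 17.3 to 23.7 M fragments per library. Markers of the labelled cells were present: 10 of 10 oocyte markers were tested in every comparison, and their summed FPKM lay at 886 to 1192 in the MII libraries and at 111 to 175 in the 2cell libraries, while 10 of 11 listed 2cell markers were in the table and summed to 48.2 to 57.0 FPKM in CPEB3+/- and 60.4 to 76.1 in CPEB3-/- MII libraries, which did not overlap, and to 484 to 961 in 2cell libraries. Of 7 2cell markers tested in MII oocytes, 3 were called higher in CPEB3-/- and 0 lower, beside 5.73% and 7.17% of all genes: Zscan4d (2.90 on the log2 scale, limma adjusted p = 8.68e-05), Zscan4c (2.25, limma adjusted p = 0.00092) and Zscan4f (1.64, limma adjusted p = 0.00507), near-identical copies that share reads. Of 10 oocyte markers there, 0 were called higher and 1 lower, Mos, the kinase gene of the meiotic arrest (214 FPKM in CPEB3+/- and 67.5 in CPEB3-/-, log2 -1.74, limma adjusted p = 0.000152). Cumulus and granulosa markers, 11 of 16 in the table, summed to at most 0.777 FPKM in any library. Of 6 blood markers only the near-identical globin genes Hba-a1 and Hba-a2 were in the table, and they summed to at most 0.428 FPKM in MII libraries and to 46.2 to 146 in 2cell libraries of both genotypes. Their part in any result was not tested.

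Cpeb3 itself was not lower in the libraries labelled CPEB3-/-. In MII oocytes it lay at 0.0450 to 0.101 FPKM in the 5 CPEB3+/- libraries and at 0.131 to 0.215 in the 5 CPEB3-/- libraries, with no overlap (p = 0.00794 in the two-sided exact permutation test, whose lowest value this is). In 2cell embryos it lay at 0.0204 to 0.0566 and at 0.0362 to 0.0633 FPKM (exact permutation test, p = 0.0317). The gene-wide value does not separate the exons between the loxP sites from the rest of the gene, so it does not check the deletion, and each genotype below is that of the label. In knockout oocytes the paper reports that Cpeb3 mRNA was absent by PCR and that CPEB3 protein was significantly reduced by immunoblot. Fewer cells and less RNA per cell cannot be told apart in such bulk samples, and FPKM give each mRNA relative to all others in its library. Per the methods mRNA was captured and then amplified, and the paper reports changed poly(A) tail lengths of selected mRNAs in CPEB3-/- MII oocytes. Whether tail length affected the values here was not tested.

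Since CPEB proteins read the 3'UTR, the longest annotated 3'UTR of each member (GENCODE vM21, GRCm38) was searched for TTTTAT and TTTTAAT, the letters of the cytoplasmic polyadenylation element. Whether CPEB3 binds these letters in these mRNAs was not measured. At least 1 match was present in 7 of 10 members, against 58.9% of 16977 genes, and in the last 100 bases in 4 members (Nfya, Nfyc, Nelfa and Yap1), against 18.0%. The 3'UTRs of Dppa4 (505 bases), Tead4 and Trim24 held no match, which says only that these letters are not in that window. The sites nearest the end of the transcript are shown in 30-base windows for these 4 genes and for Nfyb, the member with the largest difference between genotypes, with the matched letters in capitals, on the transcribed strand. They lie at chr17:48386901-48386930 (Nfya), chr4:120757517-120757546 (Nfyc), chr5:33897935-33897964 (Nelfa), chr9:7931999-7932028 (Yap1) and chr10:82748857-82748886 (Nfyb), all on the minus strand and all in the 3'UTR.
Nfya: ttgcttttcttTTTTAATaaatttataaaa
Nfyc: ctctggccactgTTTTATtttttaaataca
Nelfa: cctttaaagttTTTTAATaaaaaaatactc
Yap1: tacaataaaccaatTTTTATaatcttaaaa
Nfyb: tttttactgggtTTTTATtctgttgtatga
The matches of Nfya, Nelfa and Yap1 begin 35, 38 and 16 bases before the annotated end, that of Nfyc 97 bases and that of Nfyb 174 bases before it. The matches of Nfya and Nelfa run into AATAAA, a polyadenylation signal, and share letters with it. In Yap1 an AATAAA lies before the match. The share of all genes was counted without setting such matches apart. In the 3'UTRs of Nfyb, Dppa2 and Dppa4 no AATAAA or ATTAAA lay in the last 40 bases, where 75.5% of genes hold such a signal. Distances to these ends, and the window searched for Dppa4, rest on the annotation.

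As members are themselves DNA-binding factors, the promoter windows of members in RefSeq (GRCm38.p6, 250 bases before to 50 after a start site, 13 windows of 7 members) were searched on both strands for CCAAT, the NF-Y letters, and GGAATG, the TEAD letters. CCAAT or its reverse ATTGG was in 4 of 13 windows, of Nfya, Nfyc and Trim24, against 37.4% of 32851 windows of all genes. GGAATG or its reverse CATTCC was in 1 window, that of Yap1, against 14.7%. Windows of Dppa2, Dppa4 and Tead4 were not used here. The window of Yap1 (chr9:8004547-8004846, minus strand) and the Nfyc window with the most matches, 5 (chr4:120825160-120825459, minus strand), are shown because they hold the letters of a member's partner and of the member's own complex, with the matches in capitals.
Yap1: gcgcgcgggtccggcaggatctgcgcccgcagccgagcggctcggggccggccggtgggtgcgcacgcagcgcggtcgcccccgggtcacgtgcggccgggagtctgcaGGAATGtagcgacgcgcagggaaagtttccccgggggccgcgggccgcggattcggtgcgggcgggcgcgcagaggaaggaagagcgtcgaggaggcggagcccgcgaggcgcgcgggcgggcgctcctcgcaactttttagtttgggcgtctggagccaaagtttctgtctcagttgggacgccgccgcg
Nfyc: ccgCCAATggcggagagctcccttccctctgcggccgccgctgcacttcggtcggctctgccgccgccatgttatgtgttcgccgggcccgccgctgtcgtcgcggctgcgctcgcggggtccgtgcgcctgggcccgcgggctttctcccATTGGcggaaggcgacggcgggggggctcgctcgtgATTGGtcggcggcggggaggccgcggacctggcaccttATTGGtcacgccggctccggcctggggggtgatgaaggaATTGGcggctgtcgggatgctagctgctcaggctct

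Between genotypes 3 of 9 members tested differed in 2cell embryos, and no difference was called in MII oocytes. In 2cell embryos labelled CPEB3-/-, Nfyb and Dppa4 were lower and Yap1 was higher than in CPEB3+/- embryos. A gene was called when its limma adjusted p, over all genes tested, was under 0.05 and its fold over 1.5 on log2(FPKM + 0.1), and a gene was tested when enough libraries to fill the smaller group each had 0.1 FPKM or more. In 2cell embryos 9 members were tested, of which 2 were called lower, beside 8.56% of all genes tested, and 1 was called higher, beside 9.47%. The deposited values of 2 tested members, Nfyb and Yap1, did not overlap between genotypes, beside 20% of all genes tested. In MII oocytes 8 members were tested and 0 were called in limma, beside 5.73% of genes called higher and 7.17% called lower, and 0 were without overlap, beside 16.3% of genes. At an unadjusted p under 0.05 and the same fold the count in MII oocytes was still 0. The median log2 fold change of the tested members was -0.06 in MII oocytes and -0.10 in 2cell embryos, and that of all genes 0.02 and 0.03.

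**Figure D1:**
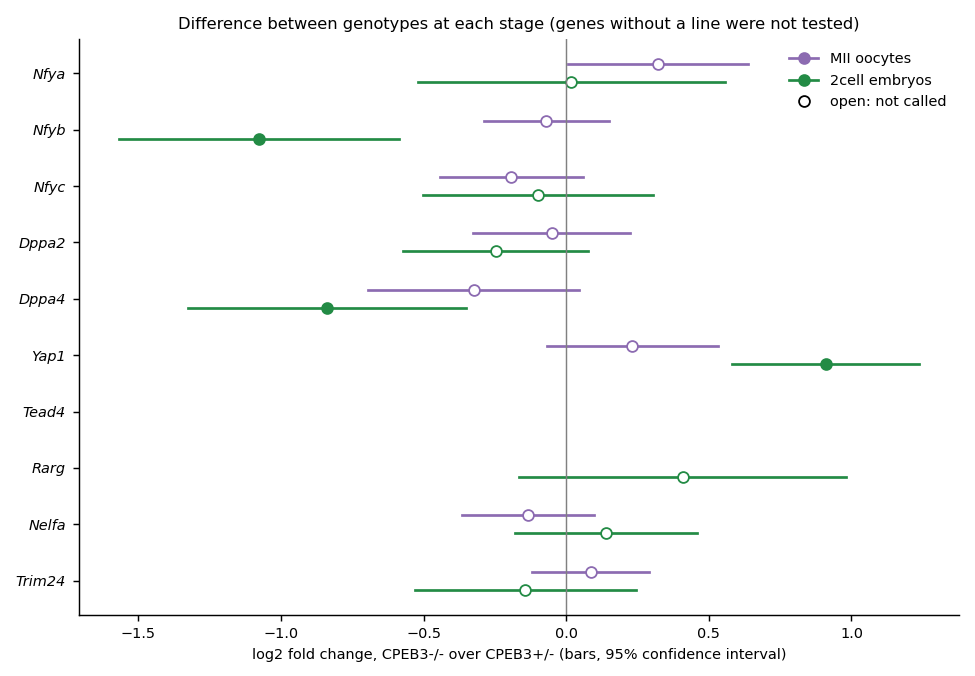
Log2 fold change of CPEB3-/- over CPEB3+/- for each tested member in MII oocytes (purple) and 2cell embryos (green), with its 95% confidence interval; filled points passed the call. Only the green points of Nfyb (-1.08), Dppa4 (-0.84) and Yap1 (0.91) are filled, and Tead4 has no point because it was not tested.

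In CPEB3+/- animals Dppa4 and Nfyb rose from MII oocytes to 2cell embryos, and Nfya, Nfyc and Trim24 fell. Of 8 members tested, 2 were called higher, beside 42.5% of all genes, and 3 lower, beside 26.2%. In animals labelled CPEB3-/- only Dppa4 was called higher of 8 tested, beside 41.7% of genes, and Nfya and Trim24 were called lower, beside 24.9%. In the test of the difference itself, the interaction of stage and genotype with no fold threshold, 2 of 9 members tested passed, Nfyb and Yap1, beside 8.18% of genes. The stage comparisons rest on how libraries are set on 1 scale: scaling to the column sum in place of the trimmed mean moved the median log2 change of all genes from 0.33 to -0.41 in CPEB3+/- and from 0.34 to -0.25 in CPEB3-/-, and turned the share of calls that were higher from 61.8% to 41.2% and from 62.6% to 44.8%. Between genotypes the same scaling moved the median of all genes from 0.02 to 0.15 in MII oocytes and from 0.03 to 0.26 in 2cell embryos, and the share of higher calls from 44.4% to 69.9% and from 52.5% to 80.9%. Under it the estimates of Dppa2, Nfyb and Nelfa in oocytes and of Dppa2, Nfyc and Trim24 in embryos, none of them called, changed sign. Changes are given on the trimmed mean scale, and are to be read against these medians.

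**Figure D2:**
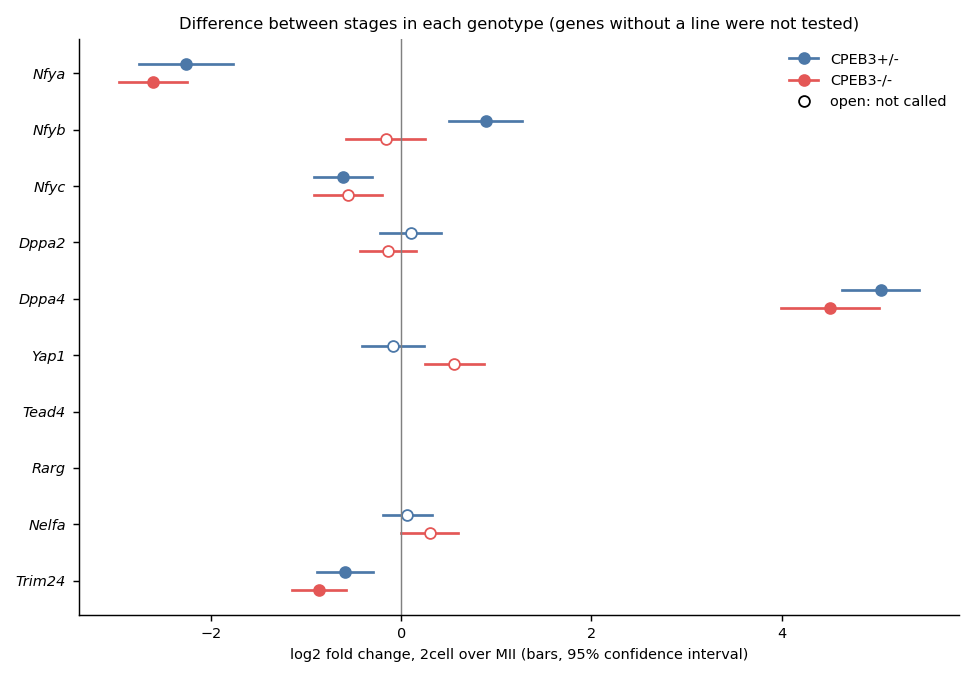
Log2 fold change of 2cell embryos over MII oocytes for each tested member in CPEB3+/- (blue) and CPEB3-/- (red), with its 95% confidence interval; filled points passed the call. Dppa4 stands far to the right in both genotypes (5.04 and 4.51) and Nfya far to the left (-2.26 and -2.61), while Nfyb is filled only in CPEB3+/-.

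NF-Y binds CCAAT boxes as a trimer, in which the histone-fold subunits NF-YB and NF-YC pair and NF-YA makes the base contacts. Nfyb (chr10:82748701-82764144, minus strand) stood at 2.39, 2.39, 2.19, 1.98 and 2.41 FPKM in CPEB3+/- MII oocytes and at 2.24, 2.29, 2.12, 2.25 and 2.59 in CPEB3-/- MII oocytes. In 2cell embryos it stood at 2.86, 3.25, 3.83, 5.04 and 5.15 FPKM in CPEB3+/- and at 2.20, 1.56, 1.32 and 2.32 in CPEB3-/-. The oocyte groups overlapped, whereas every CPEB3+/- embryo library was above every CPEB3-/- embryo library and above every oocyte library. The CPEB3-/- embryo mean was 0.459 of the CPEB3+/- mean, with 351 to 693 fragments behind each library against 817 to 1607. On the log2 scale the difference was -1.08 (SE 0.22, limma adjusted p = 0.00975), and the exact permutation test of the deposited means gave p = 0.0159, the smallest possible with 5 and 4 libraries. The call held without each library in turn (-1.20 to -0.93). Nfyb rose from MII to 2cell by 0.89 (SE 0.17, limma adjusted p = 0.000604) in CPEB3+/-, and in CPEB3-/- the estimate was -0.16 (SE 0.19, limma adjusted p = 0.449). Under the column-sum scaling the change was 0.00 in CPEB3+/- and a called fall of -0.88 in CPEB3-/-. The genotype difference in embryos less that in oocytes was -1.03 (SE 0.26, limma adjusted p = 0.0195).

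Nfya (chr17:48386885-48409906, minus strand) encodes the subunit that gives the trimer its sequence specificity, and it had the opposite course. It stood at 1.62, 2.10, 1.42, 2.36 and 2.46 FPKM in CPEB3+/- MII oocytes and at 3.52, 2.35, 2.32, 2.49 and 2.55 in CPEB3-/- MII oocytes. In 2cell embryos it stood at 0.186, 0.194, 0.496, 0.393 and 0.302 FPKM and at 0.353, 0.223, 0.355 and 0.289. Every embryo library was far below every oocyte library, and the genotypes overlapped at both stages. The fall was -2.26 on the log2 scale (SE 0.22, limma adjusted p = 2.54e-06) in CPEB3+/- and -2.61 (SE 0.16, limma adjusted p = 2.28e-07) in CPEB3-/-, and was called under every alternative setting tried. Between genotypes in oocytes the estimate was 0.32 (95% confidence interval 0.01 to 0.64, limma adjusted p = 0.13), with p = 0.0556 in the exact permutation test.

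Nfyc, which encodes the partner of NF-YB, lay at 0.383 to 0.508 FPKM in CPEB3+/- MII oocytes, 0.367 to 0.502 in CPEB3-/- MII oocytes, 0.188 to 0.309 in CPEB3+/- embryos and 0.183 to 0.318 in CPEB3-/- embryos. The stages did not overlap and the genotypes did. It fell by 0.61 on the log2 scale (SE 0.14, limma adjusted p = 0.00166) in CPEB3+/-, which dropped under the fold threshold without CPEB3+/- MII replicate C (-0.58) or 2cell replicate B (-0.54), and with a pseudocount of 1 (-0.20). In CPEB3-/- the estimate was -0.56 (SE 0.16, limma adjusted p = 0.00976), under the fold threshold, and it passed without MII replicate A (-0.61), MII replicate E (-0.59) or 2cell replicate A (-0.68).

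To compare subunits with one another, FPKM were rescaled to the exon length of each gene. On that scale Nfyb made up 28.1% ± 3.20 (SD, n = 5) of the sum of the 3 subunit levels in CPEB3+/- MII oocytes, 27.2% ± 2.55 (n = 5) in CPEB3-/- MII oocytes, 62.9% ± 3.81 (n = 5) in CPEB3+/- 2cell embryos and 46.0% ± 6.03 (n = 4) in CPEB3-/- 2cell embryos. The share of Nfya in these groups was 25.1% ± 4.43, 32.2% ± 5.07, 5.06% ± 1.86 and 8.08% ± 2.27. Thus the subunit mRNAs were far from equal in embryos, with Nfyb the most abundant in all 5 CPEB3+/- embryo libraries, at 57.1% to 66.8%, and at 41.1% to 54.5% in the CPEB3-/- embryo libraries. Nfyc made up 32.1% ± 4.20 in CPEB3+/- embryos and 45.9% ± 5.18 in CPEB3-/- embryos, where it was above Nfyb in 3 of 4 libraries. These shares are a description of mRNA levels and were not tested. The exon length is that of all annotated exons of a gene together, not of the transcripts present. Whether intronic fragments were counted is not known, and the shares can shift with either.

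**Figure D3:**
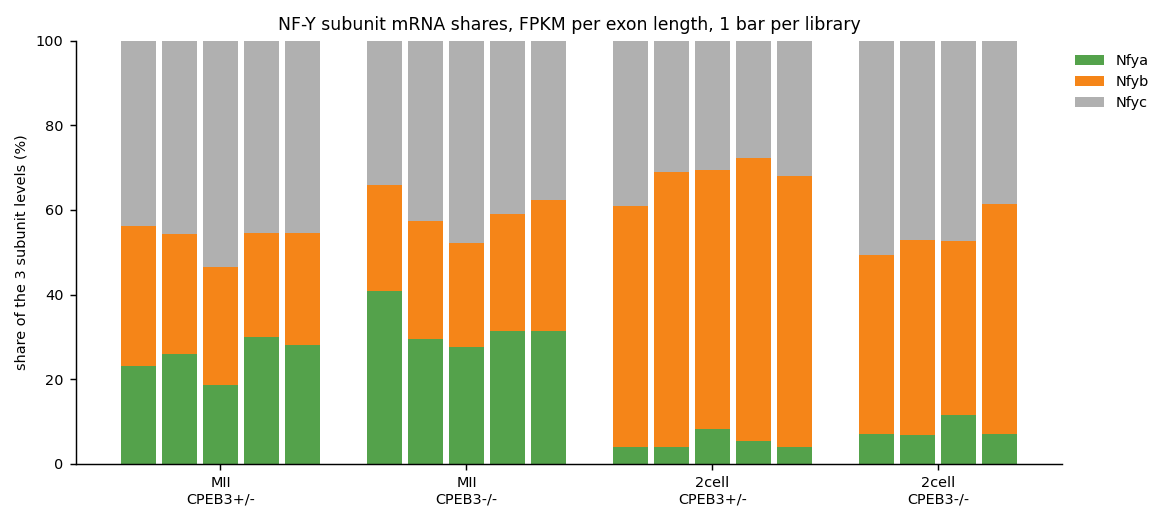
Share (%) of Nfya, Nfyb and Nfyc in the sum of their FPKM per exon length, with 1 bar for each of the 19 libraries. The Nfya part shrinks from oocytes to embryos in both genotypes, and the Nfyb part is 57.1% to 66.8% in CPEB3+/- embryos and 41.1% to 54.5% in CPEB3-/- embryos.

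DPPA2 and DPPA4 bind each other and, in mouse embryonic stem cells, act upstream of Dux and the 2cell genes. Their genes lie next to each other on chromosome 16 (Dppa4 at chr16:48283733-48294237 and Dppa2 at chr16:48303908-48319723, both on the plus strand), but their mRNAs took different courses. Dppa4 stood at 0.187, 0.190, 0.171, 0.156 and 0.169 FPKM in CPEB3+/- MII oocytes and at 0.168, 0.151, 0.0717, 0.0781 and 0.196 in CPEB3-/- MII oocytes. In 2cell embryos it stood at 5.28, 8.06, 9.39, 8.54 and 11.6 FPKM in CPEB3+/- and at 5.49, 3.79, 3.69 and 5.80 in CPEB3-/-. Embryos were far above oocytes in both genotypes, and the embryo genotypes overlapped, with CPEB3+/- replicate A, at 5.28, within the CPEB3-/- range and CPEB3-/- replicates A and D, at 5.49 and 5.80, within the CPEB3+/- range. The embryo mean was 49.2 times the oocyte mean in CPEB3+/- and 35.3 times in CPEB3-/-, and the fitted log2 changes were 5.04 (SE 0.18, limma adjusted p = 7.13e-10) and 4.51 (SE 0.23, limma adjusted p = 5.68e-08).

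In 2cell embryos Dppa4 was lower in CPEB3-/- by -0.84 on the log2 scale (SE 0.22, limma adjusted p = 0.0249), the CPEB3-/- mean being 0.547 of the CPEB3+/- mean, with p = 0.0476 in the exact permutation test. This call was lost without CPEB3+/- replicate E (-0.73, limma adjusted p = 0.0518), CPEB3-/- replicate B (-0.76, limma adjusted p = 0.069) or CPEB3-/- replicate C (-0.73, limma adjusted p = 0.0697). It was also lost with a GC correction (-0.71, limma adjusted p = 0.0675) and with the column-sum scaling, while the direction held. The difference of this change from that in oocytes was not called (-0.53, SE 0.29, limma adjusted p = 0.293), but was called with a pseudocount of 1 (-0.68, limma adjusted p = 0.0474). Of the 10 2cell markers in the table, 1 was called lower in CPEB3-/- embryos (Zscan4d, -0.97, limma adjusted p = 0.048, a gene with near-identical copies that share reads) and 0 higher, beside 8.56% and 9.47% of all genes, and their summed FPKM was 518 to 961 in CPEB3+/- and 484 to 693 in CPEB3-/- embryos. Of 10 oocyte markers, all tested, 2 were called higher in CPEB3-/- embryos and 0 lower, beside 9.47% and 8.56% of all genes. They were Ooep, which encodes a subunit of the subcortical maternal complex (0.95, limma adjusted p = 0.00144), and Gdf9, an oocyte growth factor gene (0.61, limma adjusted p = 0.0101). Of 16 cumulus and granulosa markers 2 were tested in embryos, and Tnfaip6, a cumulus matrix gene, was called lower (0.274 FPKM in CPEB3+/- and 0.0905 in CPEB3-/-, log2 -0.97, limma adjusted p = 0.0169). The part of the embryo, oocyte and cumulus markers in the differences of Dppa4, Nfyb and Yap1 between genotypes was not tested.

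Dppa2 stood at 2.26, 2.01, 2.00, 1.71 and 2.08 FPKM in CPEB3+/- MII oocytes, 1.80, 1.83, 2.26, 2.35 and 2.11 in CPEB3-/- MII oocytes, 1.56, 1.89, 1.84, 2.32 and 2.38 in CPEB3+/- embryos and 1.57, 1.58, 1.63 and 1.80 in CPEB3-/- embryos. All 4 groups overlapped, and no comparison called it on the trimmed mean scale. Under the column-sum scaling it was called lower in embryos than in oocytes in CPEB3+/- (-0.77) and in CPEB3-/- (-0.85). The estimate between genotypes in embryos was -0.25 (95% confidence interval -0.57 to 0.08) and changed sign under the column-sum scaling. Rescaled to exon length, Dppa4 was 0.0851 ± 0.00569 (SD, n = 5) of Dppa2 in CPEB3+/- oocytes and 4.17 ± 0.734 (n = 5) times Dppa2 in CPEB3+/- embryos, beside 0.0653 ± 0.0309 (n = 5) and 2.78 ± 0.592 (n = 4) in CPEB3-/-.

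**Figure D4:**
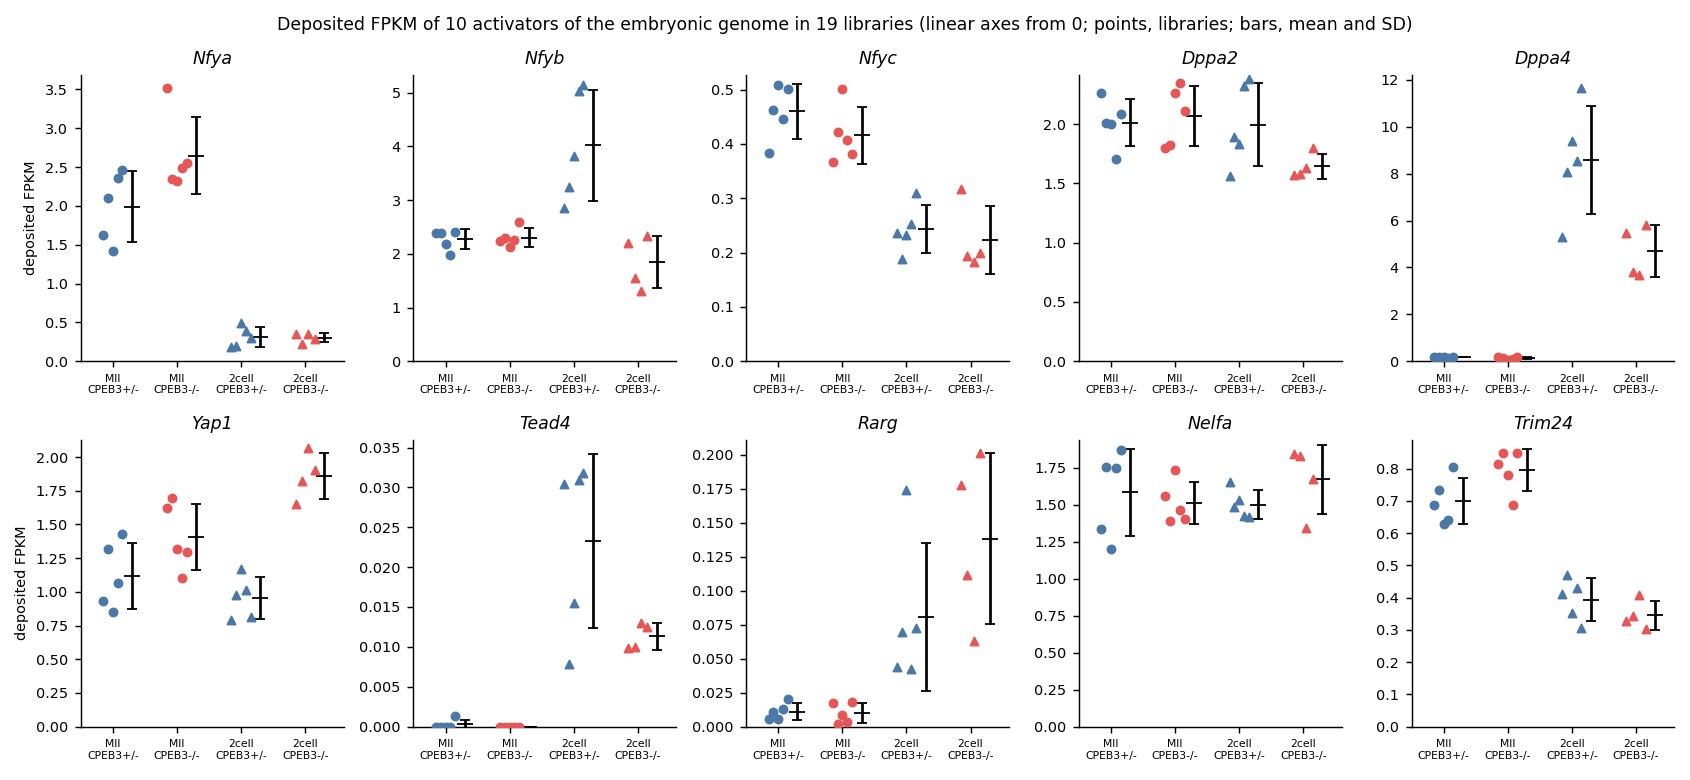
Deposited FPKM of each member in the 19 libraries (points), by stage and genotype, with the mean and SD of each group, on linear axes that start at 0 and differ between panels. Nfya drops and Dppa4 rises from oocytes to embryos, Nfyb in CPEB3-/- embryos (1.32 to 2.32) lies under all CPEB3+/- embryos (2.86 to 5.15), and Yap1 in CPEB3-/- embryos (1.66 to 2.06) lies above all of them (0.792 to 1.17).

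YAP1 is the coactivator that the Hippo kinases keep out of the nucleus, and it acts on DNA through TEAD proteins, of which TEAD4 is best known for the trophectoderm lineage of the later embryo. Yap1 (chr9:7931999-8004596, minus strand) stood at 0.934, 1.32, 0.847, 1.06 and 1.43 FPKM in CPEB3+/- MII oocytes and at 1.62, 1.69, 1.32, 1.10 and 1.30 in CPEB3-/- MII oocytes. In embryos it stood at 0.792, 0.973, 1.17, 1.01 and 0.815 FPKM in CPEB3+/- and at 1.66, 1.82, 2.06 and 1.90 in CPEB3-/-. The oocyte genotypes overlapped, and all 4 CPEB3-/- embryo libraries were above all 5 CPEB3+/- embryo libraries. The CPEB3-/- embryo mean was 1.95 times the CPEB3+/- mean (log2 0.91, SE 0.15, limma adjusted p = 0.00428), with p = 0.0159 in the exact permutation test, the smallest it can give. The call held without each library in turn (0.85 to 0.98) and fell under the fold threshold with a pseudocount of 1 (0.56). In oocytes the estimate was 0.23 (95% confidence interval -0.07 to 0.53). The difference between the embryo and oocyte estimates was 0.66 (SE 0.20, limma adjusted p = 0.0433), which stayed under an adjusted p of 0.05 in only 6 of 19 fits that each left out 1 library (0.59 to 0.73, limma adjusted p = 0.0276 to 0.0787). It was also lost with values as deposited.

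The course of Yap1 from oocyte to embryo was -0.08 (SE 0.15, limma adjusted p = 0.621) in CPEB3+/-, which the column-sum scaling turned into a called fall (-0.91), and 0.56 (SE 0.14, limma adjusted p = 0.00463) in CPEB3-/-. The second estimate is under the fold threshold, passed it without MII replicate B (0.61) or 2cell replicate A (0.63), and was -0.15 under the column-sum scaling.

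Tead4 was listed at 0 FPKM in 9 of 10 oocyte libraries, and CPEB3+/- replicate E had 0.00133 FPKM, about 2 fragments. In embryos it stood at 0.0304, 0.00791, 0.0155, 0.0310 and 0.0317 FPKM in CPEB3+/- and at 0.00981, 0.00993, 0.0130 and 0.0125 in CPEB3-/-. All 9 embryo libraries held more than any oocyte library, with 11.6 to 49.1 fragments each, while the embryo genotypes overlapped (exact permutation test, p = 0.0952). No fold against the oocytes is given, since 9 of the 10 oocyte libraries are at 0 and the other has about 2 fragments. Tead4 did not reach the level for the main test.

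Of 19 other Hippo and TEAD genes, all in the table, 11 were tested between genotypes in oocytes and 0 were called, beside 5.73% of all genes higher and 7.17% lower. In embryos 11 were tested and 1 was called higher, beside 9.47% of all genes, and 0 lower, beside 8.56%. The called gene was Wwc2, which encodes a Hippo scaffold of the KIBRA family (0.69, SE 0.12, limma adjusted p = 0.00647). Their median log2 change was 0.03 in oocytes and -0.08 in embryos, beside 0.02 and 0.03 for all genes. From oocyte to embryo 3 of 10 tested rose and 2 fell in CPEB3+/-, and 3 of 12 rose and 2 fell in CPEB3-/-, with the same 3 genes, Mob1a, Mob1b and Wwtr1, higher in both, beside 42.5% and 41.7% of all genes higher and 26.2% and 24.9% lower. Wwtr1, the gene of the YAP1 paralogue TAZ, reached at most 0.00625 FPKM in oocytes and entered the test through the embryos alone, which fixed its direction. Of the falls, Vgll4 in both genotypes and Amotl1 in CPEB3-/- likewise stayed under 0.1 FPKM in all embryo libraries of that genotype.

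RARG is a nuclear receptor that binds DNA when paired with a retinoid X receptor and is switched by retinoic acid, and TRIM24 is recruited by such receptors and reads histone marks. Rarg was low throughout, at 0.00537 to 0.0203 FPKM in CPEB3+/- oocytes and 0.00220 to 0.0179 in CPEB3-/- oocytes, which is 0.984 to 8.997 fragments per library. In embryos it stood at 0.0439, 0.0694, 0.174, 0.0426 and 0.0728 FPKM in CPEB3+/- and at 0.177, 0.111, 0.0631 and 0.201 in CPEB3-/-. Embryos were above oocytes in every library and the embryo genotypes overlapped. It entered the test of embryo genotypes by 4 libraries at 0.1 FPKM or more, 3 of them CPEB3-/-, and was not called (0.41, 95% confidence interval -0.17 to 0.98, limma adjusted p = 0.294). The stages were not tested at this filter, since too few libraries in either genotype reached 0.1 FPKM.

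Trim24 stood at 0.686, 0.735, 0.629, 0.641 and 0.805 FPKM in CPEB3+/- oocytes and 0.814, 0.847, 0.779, 0.689 and 0.847 in CPEB3-/- oocytes. In embryos it stood at 0.412, 0.470, 0.352, 0.429 and 0.304 FPKM in CPEB3+/- and at 0.327, 0.342, 0.409 and 0.302 in CPEB3-/-. The stages did not overlap and the genotypes did at both stages. The fall from oocyte to embryo was -0.87 (SE 0.13, limma adjusted p = 0.000117) in CPEB3-/-. In CPEB3+/- it was -0.60 (SE 0.13, limma adjusted p = 0.00163), close to the fold threshold: it dropped under it without MII replicate E (-0.58), 2cell replicate C (-0.55) or 2cell replicate E (-0.52), with a GC correction (-0.45) and with a pseudocount of 1 (-0.24). The pseudocount of 1 also took the CPEB3-/- fall under the threshold (-0.36).

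Among 22 genes of retinoid receptors, coregulators, binding proteins and metabolism, 21 were in the table and 7 were tested between oocyte genotypes. Only Crabp2, a cellular retinoic acid binding protein gene, was called there, lower in CPEB3-/- (47.7 ± 5.52 FPKM in CPEB3+/- and 18.9 ± 5.24 in CPEB3-/-, SD, n = 5 each, log2 -1.45, SE 0.19, limma adjusted p = 0.0011), beside 7.17% of all genes lower and 5.73% higher. In embryos 9 were tested and 1 was called, the coactivator gene Ncoa3 (0.78, SE 0.21, limma adjusted p = 0.0304), beside 9.47% of all genes higher and 8.56% lower. From oocyte to embryo 1 of 9 rose and 2 fell in CPEB3+/-, and 4 of 9 rose and 2 fell in CPEB3-/-, with Crabp2 lower in both, beside 42.5% and 41.7% of all genes higher and 26.2% and 24.9% lower. Crabp1, called higher in both, reached at most 0.0219 FPKM in oocytes and entered the test through the embryos alone, which fixed its direction. The direction was fixed in the same way in CPEB3-/- for Cyp26a1, a retinoic acid hydroxylase gene, and for the coactivator gene Ncoa1. Both were under 0.1 FPKM in all CPEB3-/- oocyte libraries, so 1 of 1 rise in CPEB3+/- and 3 of 4 in CPEB3-/- were of this kind. Of the TIF1 relatives of Trim24, Trim28 and Trim33 were tested between genotypes and not called at either stage.

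NELF-A is a subunit of the negative elongation factor, which holds RNA polymerase II paused near the start of genes. Nelfa lay at 1.20 to 1.87 FPKM in CPEB3+/- oocytes, 1.39 to 1.73 in CPEB3-/- oocytes, 1.41 to 1.65 in CPEB3+/- embryos and 1.34 to 1.84 in CPEB3-/- embryos. All groups overlapped and no comparison called it on the trimmed mean scale. The estimate between genotypes was -0.13 (95% confidence interval -0.37 to 0.10) in oocytes and 0.14 (-0.18 to 0.46) in embryos. A 1.5-fold difference lies outside both intervals on this scale, but with the column-sum scaling the embryo interval (0.06 to 0.77) holds it.

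Of 18 partners of NELF-A in pausing and elongation 16 were tested in oocytes, and 5 were called higher and 0 lower in CPEB3-/-, beside 5.73% and 7.17% of all genes. The largest were Cdk12 (0.74, limma adjusted p = 0.0382), Ell (0.72, limma adjusted p = 0.013) and Cdk9, the kinase that releases paused polymerase (0.66, limma adjusted p = 0.0272). In embryos 18 were tested, 7 were called higher and 1 lower, beside 9.47% and 8.56% of all genes. Those with the largest changes were Supt5, which encodes the pausing and elongation factor SPT5 (1.08, limma adjusted p = 0.00316), Mepce, whose product caps 7SK RNA (1.04, limma adjusted p = 0.0058), and Ell (0.97, limma adjusted p = 0.00975), while the called fall was Aff4, a scaffold of the super elongation complex (-0.69, limma adjusted p = 0.0397). The subunit partners Nelfb, Nelfcd and Nelfe were not called at either stage. The median log2 change of the group was 0.47 in oocytes and 0.08 in embryos, beside 0.02 and 0.03 for all genes. From oocyte to embryo 11 of 18 rose and 5 fell in CPEB3+/-, beside 42.5% and 26.2% of all genes, and 8 rose and 5 fell in CPEB3-/-, beside 41.7% and 24.9%. Of the 11, Hexim1 and Aff1 were under 0.1 FPKM in all CPEB3+/- oocyte libraries and entered through the embryos alone, which fixed their direction.

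A wider group of 29 further genes reported to act in genome activation held 28 in the table. In oocytes 22 were tested, and Klf4 (0.71, limma adjusted p = 0.023), the remodeller gene Smarca4 (0.61, limma adjusted p = 0.0166) and Srebf1 (0.59, limma adjusted p = 0.0375) were called higher in CPEB3-/-, 3 of 22 beside 5.73% of all genes. Tfap2c, an AP-2 transcription factor gene, was the 1 called lower, beside 7.17% of all genes (-1.40, SE 0.21, limma adjusted p = 0.00192), at 1.22 ± 0.238 FPKM in CPEB3+/- and 0.439 ± 0.162 in CPEB3-/- (SD, n = 5 each). In embryos 26 were tested, of which 5 were called higher and 3 lower, beside 9.47% and 8.56% of all genes. The lower genes were Gabpa, an ETS factor gene, at 9.29 ± 2.15 FPKM (SD, n = 5) in CPEB3+/- and 2.89 ± 0.478 (n = 4) in CPEB3-/- (log2 -1.63, SE 0.18, limma adjusted p = 0.00119), Nr5a2, an orphan nuclear receptor gene (-0.64, limma adjusted p = 0.0401), and Zfp281 (-0.59, limma adjusted p = 0.0231). The 3 with the largest rise were Usf2 (1.08, limma adjusted p = 0.0338), Elf3 (1.05, limma adjusted p = 0.00873) and the Krüppel-like factor gene Klf17 (0.97, limma adjusted p = 0.008). The median log2 change over the tested genes was 0.19 in oocytes and 0.20 in embryos, beside 0.02 and 0.03 for all genes. Duxf3, the annotated symbol of the 2cell activator Dux, which has repeated copies, stood at 0.263 ± 0.203 FPKM (SD, n = 5) in CPEB3+/- and 0.595 ± 0.388 (n = 4) in CPEB3-/- embryos and was not called (1.04, 95% confidence interval -0.14 to 2.21, limma adjusted p = 0.195). In oocytes Duxf3 lay at 0 to 0.0177 FPKM in CPEB3+/- and at 0.0188 to 0.283 in CPEB3-/-, and too few libraries reached the filter for a test. From oocyte to embryo 11 of 25 tested rose and 5 fell in CPEB3+/-, and 12 of 26 rose and 4 fell in CPEB3-/-, beside 42.5% and 26.2%, and 41.7% and 24.9%, of all genes. Gabpa and Klf5 were under 0.1 FPKM in all oocyte libraries of both genotypes and entered through the embryos alone, which fixed their direction, and Srebf1, one of the 4, was under 0.1 FPKM in all CPEB3-/- embryos. Among all genes 1874 of 5393 rises in CPEB3+/- and 2011 of 5613 in CPEB3-/- were likewise of genes under 0.1 FPKM in all oocyte libraries of the genotype.

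Rescaled to exon length, levels can be set side by side, with the limits given for the NF-Y shares. In CPEB3+/- oocytes Nelfa was highest (15.4 ± 2.88 FPKM per exon length, SD, n = 5), followed by Dppa2 (13.02), Nfyc (11.6), Yap1 (8.77), Trim24 (7.84), Nfyb (6.93) and Nfya (6.27). Each of these overlapped its neighbour in the order over the 5 libraries. Dppa4 (1.10), Rarg (0.058) and Tead4 (0.00565) followed, each clear of its neighbours. In CPEB3-/- oocytes the upper 7 were the same genes and again overlapped each neighbour, from Nelfa (14.7) to Nfyb (7.00).

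In CPEB3+/- embryos Dppa4 led at 54.2 ± 14.6 (SD, n = 5), above 97.3% of genes in the table, and clear of Nelfa (14.6). Nelfa, Dppa2 (12.9), Nfyb (12.3), Yap1 (7.47) and Nfyc (6.14) each overlapped the next, down to Trim24 (4.41), which was clear of the gene under it. Nfya (0.989), Tead4 (0.496) and Rarg (0.427) formed an overlapping group at the bottom. In CPEB3-/- embryos Dppa4 still led (29.7 ± 6.98, n = 4), Yap1 (14.6) had the third place rather than the fifth and Nfyb (5.63) the fifth rather than the fourth.

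**Figure D5:**
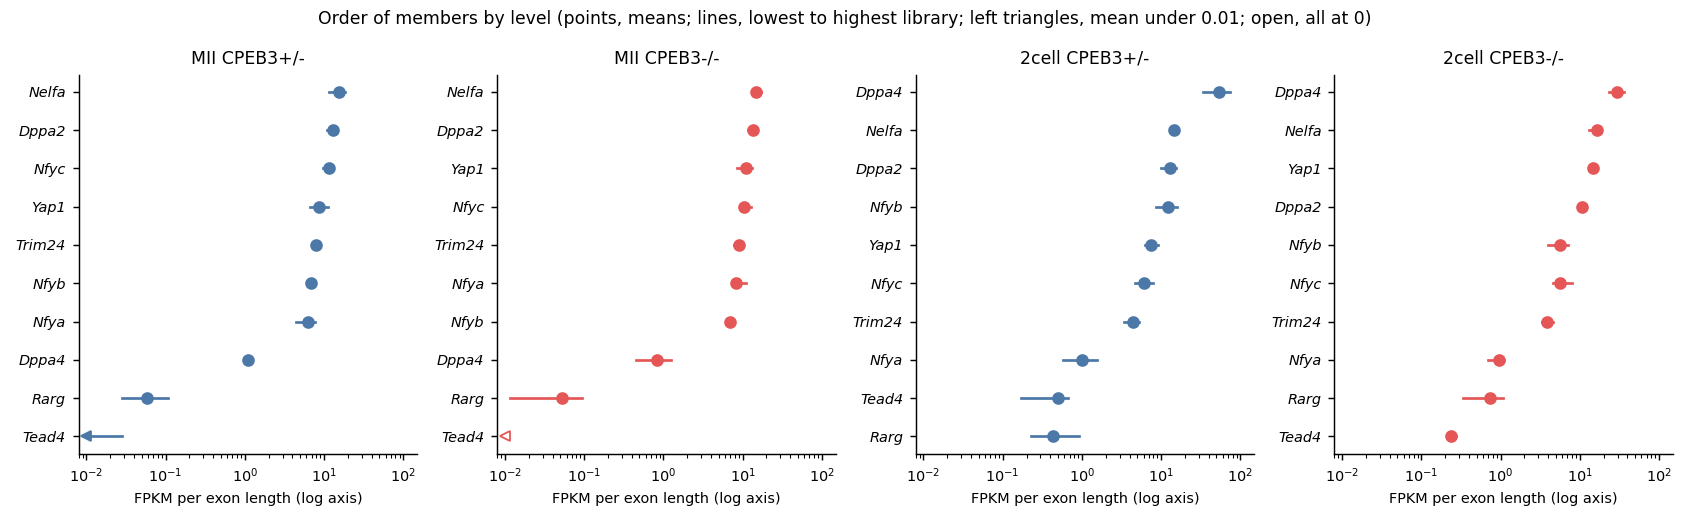
Members ordered by their mean level in each group, as FPKM per exon length on a log axis, with the lowest to highest library as a line. Dppa4 moves from the eighth place in oocytes (1.10 and 0.840) to the first in embryos (54.2 and 29.7), and Nfya from the sixth or the seventh to the eighth.

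For each tested member the gene with the most similar course over the 19 libraries, by Pearson r of log2 values among 15785 genes, is given as a description. It was Csad for Nfya (0.99), Actr6 for Nfyb (0.93), Cluap1 for Nfyc (0.92), Gm6822 for Dppa2 (0.82), Rps3a1 for Dppa4 (0.99), Nup62 for Yap1 (0.96), Gm43411 for Rarg (0.98), Gm43601 for Nelfa (0.78) and Dcp2 for Trim24 (0.97). The libraries share their stage, and Dppa2 and Nelfa, the members with no called stage difference in either genotype beside Yap1, had the lowest r.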

How the data were processed

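Libraries of MII oocytes and 2cell embryos were made from isolated RNA with the SMART-seq v4 kit, by which mRNA was captured and amplified per the methods. They were sequenced as paired 150-base reads. Per the labels the submitters used Trim Galore 0.4.1 and HISAT2 2.0.5 on GRCm38; quantification was done by the authors in SeqMonk per their methods. The deposited table holds FPKM, although it is named as counts, and the authors' values were used as given: they are not whole numbers, so no count model was run. Low values times the genomic span fall on whole fragments in most genes, which gives depths of 17.3 to 23.7 M fragments. Because the span includes introns, levels of different genes were compared after rescaling to GENCODE vM21 exon length. Whether intronic fragments were counted, and the strand setting, are not given in the sources used here.

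Values were divided by a trimmed mean factor (30% of log ratios and 5% of levels trimmed), taken as log2(FPKM + 0.1), and fitted with limma 3.58.1 (R 4.3.3, trend on mean level, Benjamini-Hochberg adjustment) within the groups compared, without a replicate block. A gene was tested when enough libraries to fill the smaller group each had 0.1 FPKM or more. A call is an adjusted p under 0.05 and over 1.5-fold; the interaction has no fold threshold. Fold changes on this scale understate those of low genes. Single members were also compared by two-sided exact permutation of deposited means over 252 (MII) or 126 (2cell) splits, 20 tests, unadjusted. The fitting code was tested on simulated data.

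Members are the 10 genes listed. Members and gene lists were chosen with earlier results of these data known. Named genes are all members in every library, Cpeb3, up to 3 called rises and 3 called falls of each list in each genotype comparison, and for each member the gene with the highest Pearson r. Alternatives were other scalings, pseudocounts and filters, a GC correction, a replicate block and leaving out each library. Exon length in place of span and a filter of 10 fragments were added after seeing the data. One repeated gene name was dropped, which left 25890 genes. Tools were Python 3 with pandas, scipy and matplotlib.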

Additional observations from a re-analysis of the deposited data

Results flagged for a closer look

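In 4 of the 39 groups of members' values that were tested, 1 library stood apart from the rest of its group by Dixon's ratio. Chance gives about 1 in 20 for normally distributed values, which the Tead4 group below is not. Nfya reached 3.52 FPKM in CPEB3-/- MII replicate A, the next library being at 2.55. Nfyc reached 0.318 FPKM in CPEB3-/- 2cell replicate A, the next being at 0.199. Rarg reached 0.174 FPKM in CPEB3+/- 2cell replicate C, the next being at 0.0728. Tead4 had 0.00133 FPKM in CPEB3+/- MII replicate E, where the other 4 libraries of the group were at 0. In such a group any value over 0 gives a ratio of 1, so the outcome for Tead4 was fixed.

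In 2 members the genotype difference itself differed between stages in the limma interaction. For Nfyb the difference in 2cell embryos less that in MII oocytes was -1.03 on the log2 scale (limma adjusted p = 0.0195), with every CPEB3+/- embryo library above every CPEB3-/- one. For Yap1 it was 0.66 (limma adjusted p = 0.0433), with all 4 CPEB3-/- embryo libraries above all 5 CPEB3+/- ones.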

How the results depend on the processing

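The letters of the libraries do not pair them: deviations of libraries with the same letter correlated at -0.18 to 0.12 (same letters across the groups compared). With a replicate block the count of members called between genotypes in 2cell embryos went from 3 to 0 (Dppa4 -0.72, limma adjusted p = 0.122, Nfyb -0.99, limma adjusted p = 0.059, and Yap1 0.86, limma adjusted p = 0.0553) and that of all genes from 2532 to 393, and with the replicate block and a GC correction both were 0 (3 residual degrees of freedom remain). In the interaction the replicate block gave 1 member and 857 genes, and 0 members with the GC correction, from 2 members and 1291 genes. In MII oocytes it gave 831 genes called, from 1356. It changed no other count of calls by over 1.5 times.

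Counts of all genes called moved further between genotypes in MII oocytes with a pseudocount of 1 (481), a filter of 1 FPKM (771), no fold threshold (2251) and exon length (2119), and in 2cell embryos with the pseudocount (1154) and the filter (1529). Between stages the pseudocount gave 5073 genes in CPEB3+/- and 5303 in CPEB3-/-, and the filter 4106 and 4387, from 8720 and 8963. The interaction gave 824 genes with the filter. Members called between stages in CPEB3+/- were 3 with the pseudocount or the filter, from 5, and in CPEB3-/- 6 with the column-sum scaling, 5 with no fold threshold and 7 with exon length, from 3 (Rarg and Tead4 among the 7, which passed that filter through the embryos alone). The interaction called 1 member with values as deposited and with exon length, and 3 with the pseudocount of 1, Dppa4 being the one gained. Under the column-sum scaling Dppa2 (-0.77) and Nelfa (-0.79) were called lower in CPEB3+/- embryos than in oocytes, against 0.10 and 0.06. Leaving out 1 library gave 2 to 3 members called between genotypes in embryos, 0 in oocytes, 4 to 5 and 3 to 5 between stages in CPEB3+/- and CPEB3-/-, and 1 to 2 in the interaction. Of 1007 other values of single members 913 kept their direction and their side of the threshold, 41 lost a call, 18 gained one, 2 reversed (Dppa2 and Nelfa above) and 33 changed sign with no call on either side. The causes were not tested. At this depth Tead4 and Rarg in oocytes rest on under 10 fragments a library, and the exact permutation test found no difference between genotypes there. How large a difference such counts could show was not measured.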
